A study of Mus musculus with 6 samples.

Results

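Interferons are secreted alarm proteins. Type I interferons bind the receptor chains IFNAR1 and IFNAR2, and interferon gamma binds IFNGR1 and IFNGR2; the JAK kinases at these receptors then phosphorylate STAT proteins, which enter the nucleus and switch on a large set of antiviral and growth-restraining genes. STAT2 and IRF9 act in a complex at the interferon-stimulated response element, interferon gamma acts through the gamma-activated site, and IRF family factors relay and extend the response. Many carcinoma cells keep some of these genes on without added interferon, and the level of this tonic activity differs between tumours.

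The 40 genes described here are 8 transcription factors of this response (Irf1, Irf2, Irf3, Irf5, Irf7, Irf8, Irf9 and Stat2), 4 receptor chains, 5 sensors of foreign nucleic acid or their regulators, and 23 induced genes that mostly encode antiviral effectors. They were chosen by name, and every probe set whose only gene symbol in the platform annotation was one of these names was taken. This gave 62 probe sets of 38 genes, out of 34945 probe sets of 18193 genes with a single symbol; Isg15 and Ifi44 were not analysed here. All 62 also matched the same symbol in RefSeq.

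The study profiled mouse breast cancer cells, labelled as breast cancer stem cells, which had been grown in medium with fetal bovine serum and sorted on CD24, a mucin-like surface glycoprotein, and CD29, the integrin beta-1 chain. One group was labelled positive for both proteins (CD24+CD29+) and the other negative for both of them (CD24-CD29-), and each was read on 3 arrays; no strain, age, genotype, cell line name or interferon treatment is given in the labels. The arrays were Affymetrix Mouse430_2, and many genes have several probe sets on them. The sample sets are described as independent, but the sources used here do not say whether they were separate cultures, sorts or animals, so the p-values measure the spread between these arrays, part of which may be technical.

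All values below are RMA values on the log2 scale, and a difference is the mean of CD24+CD29+ minus the mean of CD24-CD29- arrays, with the standard error (SE) from limma's fit over all 18193 genes. A gene was called higher or lower where the Benjamini-Hochberg adjusted p over all genes was under 0.05. Each gene was represented by its brightest probe set that does not end in _x_at, where it had one, called here its main probe set. The array format gives no detection calls, and the median value of an array lay between 6.23 and 6.29, so values near or under that level can be mostly background. Among epithelial markers, Epcam read 14.11 ± 0.02 and 14.13 ± 0.02 and Krt8 13.50 ± 0.02 and 13.67 ± 0.01 in CD24+CD29+ and CD24-CD29- arrays (mean ± SD, n = 3). Of the 15 epithelial markers 5 were higher (33.3%), 8 lower (53.3%) and 2 not called. Each of them had a mean level of 7 or more, and 54.2% of genes that bright were called higher and 23.8% lower. The largest rises in CD24+CD29+ cells were those of the basal genes Krt14, Trp63 and Krt5, by 0.99, 0.80 and 0.65. Krt7 and Cd24a were also higher, by 0.38 and 0.21. The largest falls were those of the luminal genes Muc1, Elf5 and Krt19, at -0.98, -0.97 and -0.95. The part of this epithelial difference in the interferon results was not tested. The RNA of both sort genes was far above the array median in both groups, also in the cells labelled negative: Itgb1, which encodes CD29, read 10.94 ± 0.05 and 10.06 ± 0.03, and Cd24a 13.00 ± 0.02 and 12.79 ± 0.03 (mean ± SD, n = 3) in CD24+CD29+ and CD24-CD29- arrays. Itgb1 was higher in CD24+CD29+ cells by 0.87 (SE 0.04, adjusted p = 2.49e-06) and Cd24a by 0.21 (SE 0.04, adjusted p = 0.00257), with 1 of 6 and 1 of 3 probe sets called in the opposite direction. These are RNA values, and surface protein was not measured here. Arrays of a group correlated at 0.998 to 0.999 over genes, which are not independent replicates, and arrays of different groups at 0.974 to 0.978.

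Directions are given as RMA left them, that is, relative to the rest of the array. The per-array medians of 27 probe sets for added poly-A control RNAs differed by -1.26 between the groups, and scaling to them moved the median difference of all genes from -0.04 to 1.22 and the share of calls that were higher from 48.5% to 99.3%. Every difference, of marker genes too, moves by one and the same amount under it, which turns the leukocyte median given below as well. Under that scaling all 38 genes were called higher, so each of their falls described below turns into a rise under it.

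The interferon genes did not move together. CD24+CD29+ cells had lower RNA of Ifnar2, the ligand-binding chain of the type I receptor, by 2.11-fold on 1 of its 3 probe sets (the others were not called, and the mean of the 3 gave a log2 difference of -0.34), and of the transcription factor genes Irf1 and Irf8 by 1.82-fold and 1.69-fold. They had higher RNA of Usp18, the protease that removes ISG15 from proteins and restrains signalling at IFNAR2, by 1.64-fold, and of Dhx58 by 1.82-fold on a main probe set that the gene's other probe sets opposed. Of the 38 genes, 12 were called higher and 15 lower, and 11 did not pass. That is 71.1% of them, where 70.8% of all genes were called, 34.4% higher and 36.5% lower; a share this close to the background is not a result about these genes. Their median difference was -0.07, against -0.04 over all genes. The split depended on the normalization. After quantile normalization 8 of the 38 were higher and 19 lower, while 5573 of all genes were higher and 6212 lower. Cyclic loess also gave 8 and 19, with 5590 and 6202 over all genes. Sizes were small: 31 of the 38 differed by less than 1.5-fold, and Ifnar2 alone reached 2-fold, a size that 4.67% of all genes reached. The arrays of the 2 groups did not overlap for 30 of the genes, where 73.6% of all genes showed no overlap. Counted by probe set, 15 of the 62 were higher, 24 lower and 23 not called, which is 62.9% called, against 63.9% of all probe sets, of which 29.2% were higher and 34.8% lower.

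**Figure D1:**
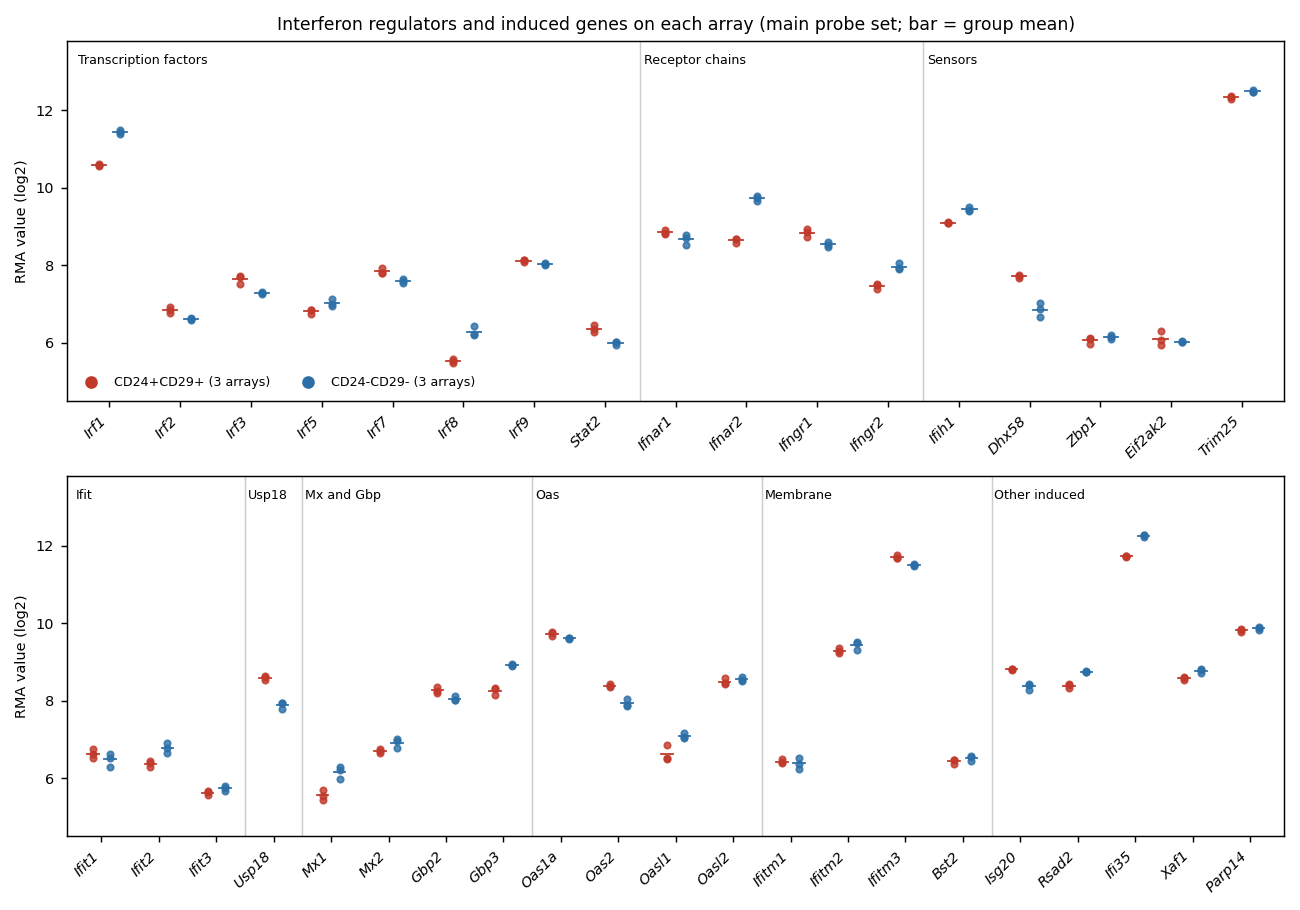
RMA values (log2, vertical axis) of the main probe set of each of the 38 genes on the 3 CD24+CD29+ arrays (red) and the 3 CD24-CD29- arrays (blue); each point is an array and each bar a group mean. The groups stand apart for Ifnar2, Irf1, Irf8, Dhx58, Usp18 and Gbp3, and overlap for genes such as Ifit1, Ifitm1 and Parp14.

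The counts are set here beside those of all genes of like level, since dim genes were mostly lower and bright ones mostly higher. Of the genes with a mean level under 7, 14 belonged to the set; 2 of these were higher and 6 lower, while 13.2% of all genes at this level were higher and 50.01% lower. At a mean of 7 or more there were 24, of which 10 were higher and 9 lower, while 54.2% of all genes at this level were higher and 23.8% lower. The median difference of the brighter 24 was 0.02, against 0.18 for all genes of that level, and that of the dimmer 14 was -0.11, against -0.18.

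**Figure D2:**
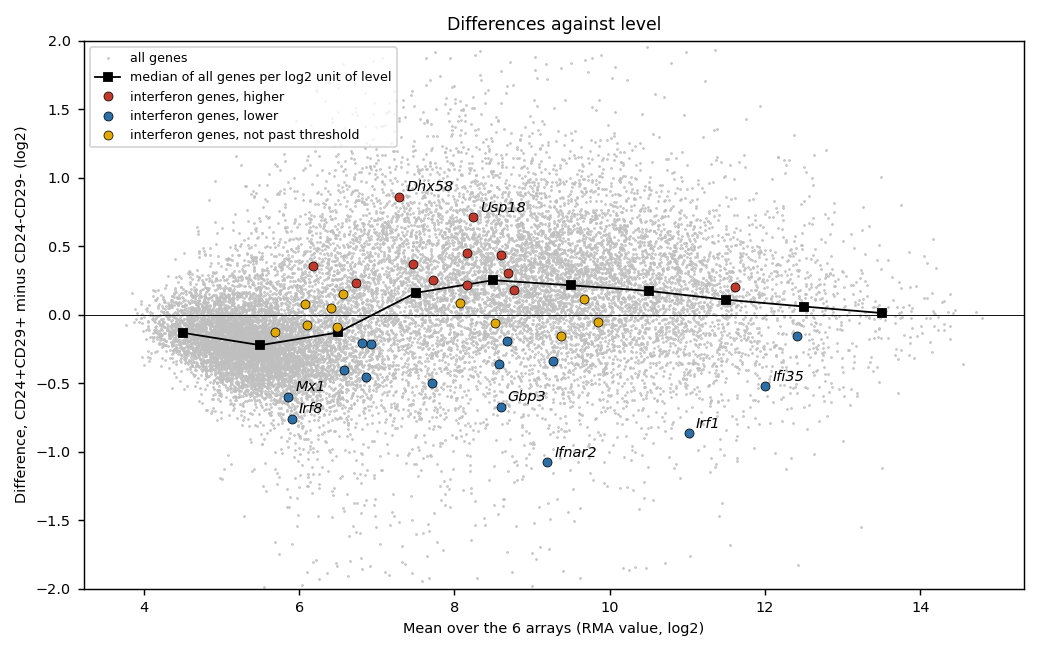
Difference between the groups (log2, vertical axis) against the mean over the 6 arrays (log2, horizontal axis) for all genes (grey; 64 genes beyond 2 log2 units in either direction are not drawn) and for the interferon genes (red higher, blue lower, yellow not past the threshold). Black squares are medians of all genes per log2 unit of level, which run from -0.22 at 5 to 6 up to 0.25 at 8 to 9; Ifnar2, Irf1 and Gbp3 lie far below that line and Dhx58 and Usp18 above it.

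The promoters of several of these genes carry the sequences through which interferon acts, and they are shown here so that the elements can be set beside the measured directions. RefSeq promoter windows on the build GRCm38.p6, from 250 bases before to 50 bases after each transcription start, were found for 33 of the 40 genes. The interferon-stimulated response element was searched as GAAA, 2 bases of any kind and GAAA again, and the gamma-activated site as TTCNNNGAA, on both strands, and copies that overlap each other were counted. At least 1 response element was present in 14 of the 33 genes (42.4%), against 3.99% of all 27025 genes with a window, and at least 1 gamma-activated site in 12 (36.4%), against 9.55%. The genes were picked because interferon is known to act on them, so these shares describe the choice as much as the sequence.

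The 180 bases before the start, 5′ to 3′ on the gene's strand, are printed for 2 transcription factor genes that were lower and for 4 effector genes. Of the effector genes, Gbp3 was called lower and Gbp2 higher, and Ifit1 and Oas1a were not called. Capitals mark matches to either motif.
Irf1, chr11:53769834-53770013 (+ strand): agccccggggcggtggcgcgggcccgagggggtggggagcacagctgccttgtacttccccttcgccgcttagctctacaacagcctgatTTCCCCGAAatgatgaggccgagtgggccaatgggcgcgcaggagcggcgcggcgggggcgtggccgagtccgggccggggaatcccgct
Irf8, chr8:120736178-120736357 (+ strand): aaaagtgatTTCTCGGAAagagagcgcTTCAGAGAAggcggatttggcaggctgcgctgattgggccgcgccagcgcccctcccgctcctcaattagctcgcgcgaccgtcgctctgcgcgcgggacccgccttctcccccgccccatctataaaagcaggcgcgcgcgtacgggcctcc
Gbp3, chr3:142559864-142560043 (+ strand): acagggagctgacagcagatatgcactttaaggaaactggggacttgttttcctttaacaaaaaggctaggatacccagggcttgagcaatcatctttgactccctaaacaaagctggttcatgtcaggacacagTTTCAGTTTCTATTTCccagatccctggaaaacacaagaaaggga
Gbp2, chr3:142620483-142620662 (+ strand): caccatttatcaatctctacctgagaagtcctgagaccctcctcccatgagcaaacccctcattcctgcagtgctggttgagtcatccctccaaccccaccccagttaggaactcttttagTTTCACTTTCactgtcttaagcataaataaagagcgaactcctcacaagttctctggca
Ifit1, chr19:34640709-34640888 (+ strand): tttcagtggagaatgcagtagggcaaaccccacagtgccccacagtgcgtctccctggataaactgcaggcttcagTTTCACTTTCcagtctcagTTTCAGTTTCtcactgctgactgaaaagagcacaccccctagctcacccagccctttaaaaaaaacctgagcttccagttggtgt
Oas1a, chr5:120907526-120907705 (- strand): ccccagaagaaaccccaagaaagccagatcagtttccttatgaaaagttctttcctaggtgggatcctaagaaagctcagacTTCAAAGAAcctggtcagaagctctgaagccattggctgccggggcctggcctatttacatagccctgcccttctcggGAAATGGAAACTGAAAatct

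Irf1 holds a single gamma-activated site at -90 to -82 from the start, and Irf8 holds 2 at -171 to -163 and -153 to -145. In Gbp3 there are 2 overlapping response elements between -45 and -30, and in Gbp2 a single one at -59 to -50. For Ifit1 2 separate response elements were found, at -104 to -95 and -85 to -76, and for Oas1a an overlapping pair between -20 and -5 with a gamma-activated site at -98 to -90. Of these genes Gbp3 was lower and Gbp2 higher in CD24+CD29+ cells, while Ifit1 and Oas1a did not pass. The call of Gbp2 was lost in 4 of the 17 alternatives other than the poly-A scaling, with 0.01 after cyclic loess and -0.14 on its probe set ending in _x_at. Among the 13 measured genes with a response element 4 were higher, 3 lower and 6 not called, with a median of 0.08. Among the 18 without an exact match in the window 5 were higher, 10 lower and 3 not called, with a median of -0.17. Over all genes 34.4% were called higher and 36.5% lower. Usp18, Dhx58, Mx1, Mx2, Oas2, Zbp1 and Parp14 had no window and are in neither count. Whether the direction differs with the element was not tested. A match describes letters in this window and does not show that a factor binds there.

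**Figure D3:**
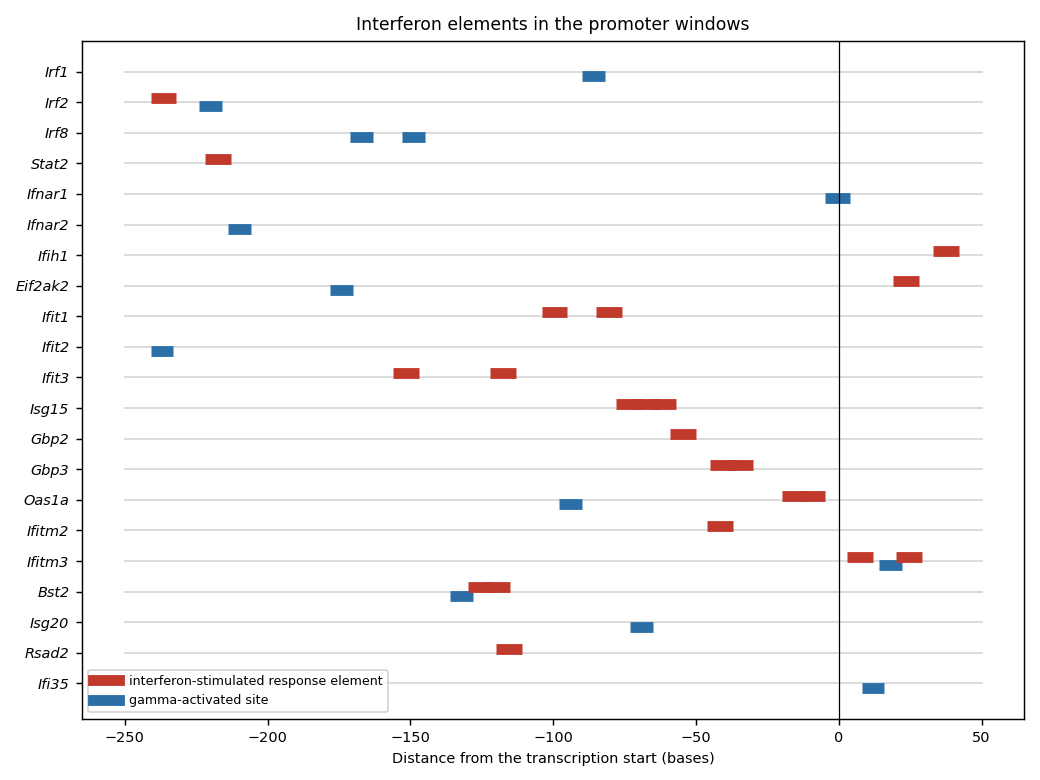
Positions of the response element (red) and of the gamma-activated site (blue) relative to the transcription start (horizontal axis, bases) in every interferon gene of the set with a match in any listed promoter window. Those of Gbp2, Gbp3, Ifit1, Ifit3, Isg15, Oas1a and Rsad2 lie just upstream of the start, and in Bst2 and Ifitm3 the motifs overlap.

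On the deposited scale the 2 chains of each receptor went in opposite directions, although both rises were lost under other normalizations. Ifnar2, which binds type I interferon with the higher affinity, read 8.69, 8.58 and 8.68 in CD24+CD29+ arrays and 9.79, 9.73 and 9.67 in CD24-CD29- arrays. Every CD24-CD29- array was about a log2 unit above every CD24+CD29+ array, and the difference was -1.08 (SE 0.05, adjusted p = 2.14e-06). This difference was seen on 1 of its 3 probe sets. In the fit over all 45037 probe sets the others gave -0.09 and 0.14, neither past the threshold, and the mean of the 3 gave -0.34, which passed. Mouse Ifnar2 is known to give transmembrane and soluble receptor forms by splicing; which form each probe set reads was not tested.

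Ifnar1, the second type I chain, read 8.92, 8.82 and 8.82 against 8.53, 8.71 and 8.78. Its groups barely separated, and the difference of 0.18 (SE 0.07, adjusted p = 0.0487) lost its call under the mean of its probe sets (0.08), in the fit over all probe sets (adjusted p = 0.0544), and without replicate 1, 2 or 3 of CD24+CD29+ or replicate 1 or 2 of CD24-CD29- (adjusted p 0.0681 to 0.143), and it turned to -0.02 after quantile normalization and -0.03 after cyclic loess. Ifngr1, the ligand-binding chain for interferon gamma, read 8.93, 8.73 and 8.85 against 8.60, 8.48 and 8.54. All its CD24+CD29+ arrays were higher (0.30, SE 0.06, adjusted p = 0.0029), but the call was lost after quantile normalization (0.10) and cyclic loess (0.09). Ifngr2, the signalling partner chain, read 7.49, 7.39 and 7.51 against 8.06, 7.92 and 7.91. Here the CD24+CD29+ arrays were all lower, by -0.50 (SE 0.06, adjusted p = 0.000138), and the other probe set gave -0.61 in the fit over all probe sets.

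Ifnar2, Il10rb, Ifnar1 and Ifngr2 are consecutive protein-coding genes on mouse chromosome 16 in RefSeq. Their differences were -1.08, -0.17, 0.18 and -0.50. The one positive value, of Ifnar1, was not stable, as given above, and under the poly-A scaling all 4 were called higher. Il10rb, a chain shared by the receptors for interferon lambda and interleukin 10, was lower by a small amount (SE 0.05, adjusted p = 0.023).

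The transcription factors split. Irf1, which is induced by interferon gamma and drives antigen presentation and growth arrest genes, had the largest fall of the factors on main probe sets, one that the poly-A scaling turned to 0.39. Its arrays read 10.56, 10.59 and 10.60 in CD24+CD29+ cells and 11.39, 11.45 and 11.50 in CD24-CD29- cells, a difference of -0.86 (SE 0.05, adjusted p = 2.81e-06). Both groups were far above the array median, and the spread within a group was at most 0.05 (SD, n = 3). Irf8, a factor of myeloid and lymphoid cells, read 5.57, 5.48 and 5.53 against 6.42, 6.24 and 6.20. Its arrays did not overlap either (-0.76, SE 0.07, adjusted p = 3.03e-05), and the other probe set gave -1.21. On the main probe set every value but that of CD24-CD29- replicate 1 lay under the median of its array. Irf5, which acts downstream of Toll-like receptors, read 6.84, 6.85 and 6.75 against 7.13, 7.01 and 6.94. This small fall (-0.21, SE 0.06, adjusted p = 0.013) was lost with the mean of its probe sets (-0.13, adjusted p = 0.0584) and without CD24+CD29+ replicate 3 (-0.18, adjusted p = 0.0501).

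Leukocyte markers moved with Irf8 and Irf5. Of 25 measured, 18 were lower in CD24+CD29+ cells, 1 was higher (Coro1a) and no call was made for 6; their median was -0.29. These markers were mostly dim, with a median level of 5.64, and of all genes at a level of 5 to 6, 56.6% were lower, with a median of -0.22. The sum of their linear values was 7072 to 7131 in CD24+CD29+ arrays and 8544 to 8734 in CD24-CD29- arrays. Most of each sum came from 1 gene, Cd14, which read 12.50 ± 0.02 and 12.78 ± 0.02 (SD, n = 3), so the sums say little about the other markers. Ptprc, which encodes the pan-leukocyte protein CD45, stood at 4.85 ± 0.14 and 4.94 ± 0.15 (SD, n = 3), with no called difference; its values, and those of Cd3g and Itgam, lay under the lower quartile of every array. The macrophage receptor gene Csf1r was lower by -0.88 (SE 0.08, adjusted p = 3.26e-05). In bulk samples fewer cells of a type and less RNA per cell cannot be told apart, and the part of leukocytes in the Irf8 and Irf5 differences was not tested. Fibroblast markers went the other way: all 12 were higher in CD24+CD29+ cells, with a median of 0.64. They were mostly bright, with a median level of 8.69. Of all genes at a level of 7 or more, 54.2% were higher, with a median of 0.18. The linear sums of the fibroblast markers were 30710 to 32658 against 20624 to 20972. Most of each sum came from Postn, which read 14.26 ± 0.09 and 13.83 ± 0.02 (SD, n = 3). The part of fibroblasts in the interferon genes that were higher was not tested either.

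Of the other 5 factors 4 were higher and Irf9 did not pass. Stat2, which acts with IRF9 in the type I response, read 6.47, 6.27 and 6.34 in CD24+CD29+ arrays and 6.03, 6.03 and 5.95 in CD24-CD29- arrays. The groups separated (0.36, SE 0.06, adjusted p = 0.00106), although all values were near the array median and the second, dimmer probe set gave 0.02. Irf9, the DNA-binding part of that complex, read 8.14, 8.12 and 8.08 against 8.05, 8.03 and 8.001. Its arrays did not overlap, yet the difference of 0.09 (95% interval -0.01 to 0.18) did not pass, and it turned to -0.11 after quantile normalization and cyclic loess, where it was called.

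Irf3, which is activated directly by viral sensing, read 7.72, 7.53 and 7.71 against 7.27, 7.31 and 7.27. The difference was 0.37 (SE 0.06, adjusted p = 0.000895), or 0.20 after quantile normalization, and all 4 probe sets of the gene were higher, 2 of them past the threshold. Irf7, the factor that amplifies type I interferon production, read 7.92, 7.81 and 7.80 against 7.59, 7.54 and 7.66. It was called higher (0.25, SE 0.05, adjusted p = 0.00369) but not after quantile normalization (0.08) or cyclic loess (0.07). Irf2, which competes with IRF1 for the same sites, read 6.86, 6.77 and 6.92 against 6.59, 6.61 and 6.65. Its difference of 0.23 (SE 0.05, adjusted p = 0.00446) was opposite in sign to that of Irf1; the probe set ends in _s_at and may read related transcripts.

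Among the sensors and their regulators, Dhx58, Trim25 and Eif2ak2 gave conflicting readings between probe sets. Ifih1, which encodes MDA5, the sensor of long double-stranded RNA, read 9.10, 9.11 and 9.10 against 9.50, 9.44 and 9.40. These arrays did not overlap, and the fall of -0.34 (SE 0.04, adjusted p = 0.000253) was -0.53 after quantile normalization and 0.92 under the poly-A scaling. Dhx58, which encodes LGP2, a relative that modulates MDA5 and RIG-I, read 7.76, 7.67 and 7.72 against 6.67, 6.88 and 7.02 on its main probe set (0.86, SE 0.08, adjusted p = 6.49e-05). Its dimmer probe sets were called in the opposite direction, at -0.49 and -0.26, but they read 5.11 to 5.68 and 3.85 to 4.21, under the array median. The mean of the 3 gave 0.04, which did not pass.

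Trim25, the ubiquitin ligase that activates RIG-I, showed the same kind of conflict. It was lower by -0.15 (SE 0.04, adjusted p = 0.0115) on its main probe set, which ends in _s_at and lost its call after median centring, and higher by 0.60 and 0.35 on the other probe sets; without the probe set ending in _s_at it was 0.60 and called higher. Eif2ak2, the kinase PKR that stops translation on double-stranded RNA, did not pass on its main probe set (0.08, 95% interval -0.13 to 0.28), while its dimmer probe sets, which read under the array median, were called at 0.68 and -0.38. Zbp1, a sensor of left-handed nucleic acid, did not pass on its main probe set (-0.08, 95% interval -0.21 to 0.05) and was called lower by -0.53 on the other. Both of its probe sets read under the array median on all 6 arrays.

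**Figure D4:**
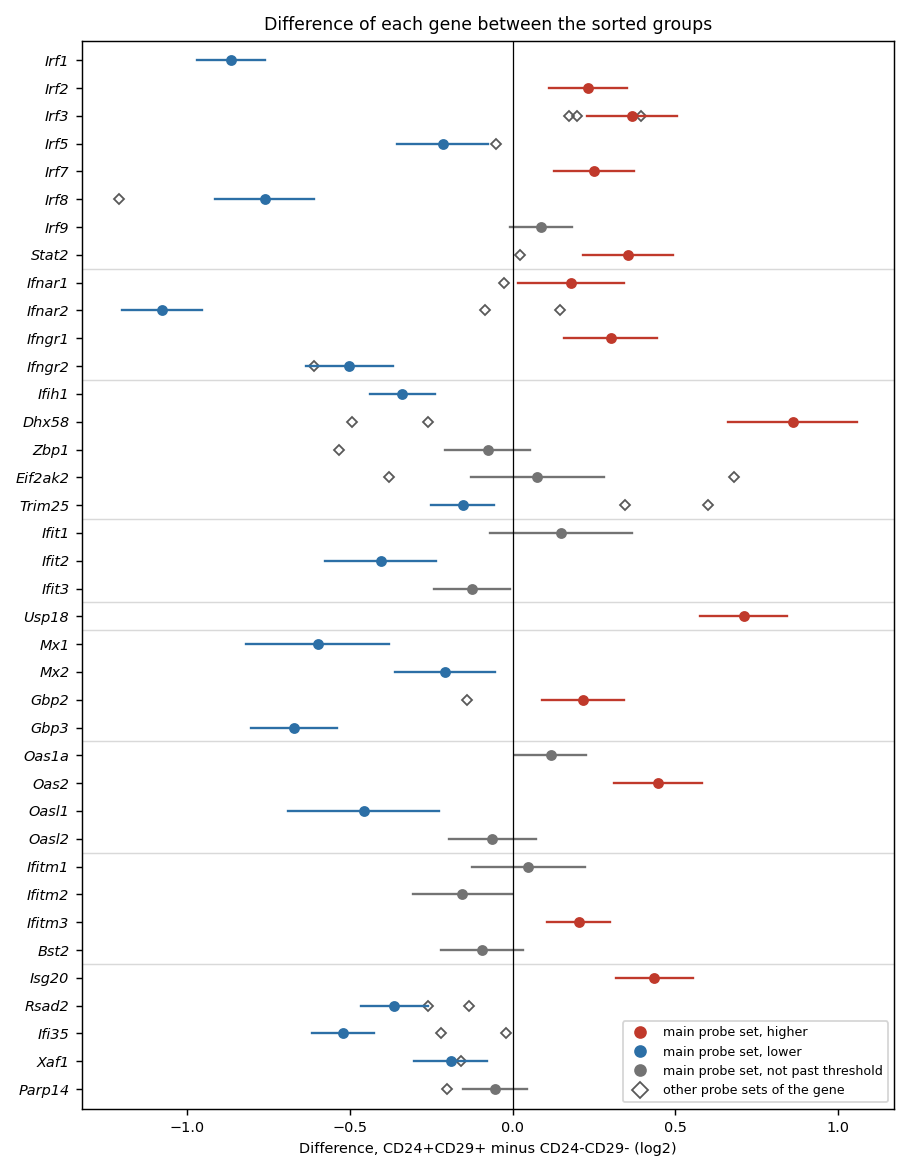
Difference between the groups (log2, horizontal axis) for each gene, in blocks by role: circles are main probe sets with the 95% interval of the fit (red higher, blue lower, grey not past the threshold), and open diamonds are the gene's other probe sets. Ifnar2, Irf1 and Irf8 lie furthest to the left, Dhx58 and Usp18 furthest to the right, and the diamonds of Dhx58, Trim25 and Eif2ak2 fall on both sides of the main value or opposite to it; every main value is positive when the arrays are scaled to the poly-A controls.

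Usp18 had the clearest rise among the induced genes. It read 8.63, 8.53 and 8.63 in CD24+CD29+ arrays and 7.93, 7.94 and 7.79 in CD24-CD29- arrays, with a difference of 0.71 (SE 0.06, adjusted p = 2.25e-05) on its only probe set. It was called higher under all 18 alternatives, from 0.50 after cyclic loess to 1.97 under the poly-A scaling. Isg20, an exonuclease that degrades viral RNA, read 8.82, 8.79 and 8.83 against 8.44, 8.29 and 8.40. All its CD24+CD29+ arrays were higher (0.44, SE 0.05, adjusted p = 0.000156), by 0.22 after cyclic loess.

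The dynamin-like and guanylate-binding GTPases, which block viral and bacterial replication, were lower in 3 of 4 cases on the deposited scale, and all were higher under the poly-A scaling. Gbp3 read 8.15, 8.33 and 8.30 against 8.96, 8.90 and 8.93. No arrays overlapped, and the fall was -0.67 (SE 0.06, adjusted p = 2.88e-05). Mx1, which traps incoming viral ribonucleoproteins in the nucleus, read 5.54, 5.44 and 5.71 against 6.28, 6.21 and 5.99, a difference of -0.60 (SE 0.09, adjusted p = 0.000769) at values that lay under the array median on all 6 arrays. Mx2 was lower by -0.21 (SE 0.07, adjusted p = 0.0232), a call lost after median centring (-0.15) and without replicate 2 or 3 of CD24+CD29+ or replicate 1 or 2 of CD24-CD29- (adjusted p 0.0553 to 0.0761). Gbp2, a close relative of Gbp3 on the same chromosome, went the other way by 0.22 (SE 0.05, adjusted p = 0.00787), but its probe set ending in _x_at gave -0.14, the mean of both gave 0.04, and cyclic loess 0.01, none of them called.

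The OAS family makes oligoadenylates that activate RNase L, or, for the OAS-like proteins, acts on sensing and translation. Oas2 read 8.43, 8.37 and 8.36 against 8.06, 7.88 and 7.90, higher by 0.45 (SE 0.06, adjusted p = 0.000283), or by 0.25 after quantile normalization. Oasl1, which restrains the translation of Irf7, read 6.49, 6.87 and 6.53 against 7.05, 7.05 and 7.16, and was lower by -0.46 (SE 0.10, adjusted p = 0.00416). One CD24+CD29+ array, replicate 2, stood closer to the other group than its partners did, and without it the difference was -0.58. Oas1a (0.12, 95% interval 0.01 to 0.22, adjusted p = 0.0527) and Oasl2 (-0.06, 95% interval -0.20 to 0.07) did not pass; Oas1a belongs to a cluster of closely related genes that its probe set may also read.

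The IFIT proteins bind viral RNA ends and stop its translation. Ifit2 read 6.45, 6.39 and 6.29 against 6.91, 6.77 and 6.66, a fall of -0.40 (SE 0.07, adjusted p = 0.00162) that was 0.85 under the poly-A scaling. Ifit1 (0.15, 95% interval -0.07 to 0.37) and Ifit3 (-0.12, 95% interval -0.24 to -0.01, adjusted p = 0.054) did not pass, so of the 3 neighbouring genes 1 was called. Values of Ifit3 lay under the array median on all 6 arrays, and it has a near-identical copy in the mouse that its probe set may also read.

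Rsad2, which encodes viperin, an enzyme that makes a chain-terminating nucleotide, read 8.40, 8.33 and 8.43 against 8.77, 8.73 and 8.74. Its fall of -0.36 (SE 0.04, adjusted p = 0.000193) was -0.58 after cyclic loess and 0.89 under the poly-A scaling, and its dimmer probe sets gave -0.26, which passed, and -0.13, which did not. Ifi35, a regulator of innate signalling that pairs with NMI, read 11.75, 11.73 and 11.75 against 12.22, 12.28 and 12.29 on a probe set ending in _s_at (-0.52, SE 0.04, adjusted p = 2e-05). Its probe set ending in _x_at was also called lower, at -0.22, while the one with neither suffix gave -0.02 (adjusted p = 0.735). Xaf1, a pro-apoptotic antagonist of XIAP, was lower by -0.19 (SE 0.05, adjusted p = 0.00804), or by -0.40 after cyclic loess, and Parp14 did not pass (-0.05, 95% interval -0.15 to 0.04).

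Membrane restriction factors, which keep viruses from entering or leaving cells, differed least of the roles, with a median size of 0.12. Ifitm3 was higher by 0.20 (SE 0.04, adjusted p = 0.00332), or by 0.13 after cyclic loess, at 11.71 ± 0.04 against 11.51 ± 0.02 (SD, n = 3). Ifitm1 (0.05, 95% interval -0.13 to 0.22), Ifitm2 (-0.15, adjusted p = 0.0654) and Bst2, which encodes the tether protein tetherin (-0.09, 95% interval -0.22 to 0.03), did not pass. Ifitm2 was called lower, at -0.34, after quantile normalization.

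Under the settings other than the poly-A scaling in which a gene was tested, 18 of the 27 called genes kept their call and direction, 7 higher (Irf2, Irf3, Stat2, Usp18, Oas2, Ifitm3 and Isg20) and 11 lower (Irf1, Irf8, Ifnar2, Ifngr2, Ifih1, Ifit2, Mx1, Gbp3, Oasl1, Rsad2 and Xaf1). There were 17 such settings for each of these genes, except that Irf8, Stat2 and Mx1 had 16, as the filter on the dimmest 40% removed them. The other 9 lost the call or changed sign in at least 1 setting. The share of all called genes that keep their call under these settings was not computed. These counts therefore do not set the interferon genes apart from other genes.

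Other genes of the pathway were also called in both directions; under the poly-A scaling all measured genes of the ligand, receptor signalling, sensing and other Irf lists were called higher. Of 10 measured interferon ligand genes 5 were lower, 1 was higher and 4 did not pass (median -0.15), and 8 of the 10 lay under the array median. Ifna1, Ifnab, Ifna9 and Ifnb1 differed most, with values of -0.65, -0.50, -0.36 and -0.24, at 4.64 to 5.60. The only probe sets of Ifna1 and Ifnab end in _x_at and may read related transcripts. Among all genes at a level of 4 to 5, where Ifnab and Ifnb1 lie, 40.5% were lower, with a median of -0.13; of those at 5 to 6, where Ifna1 and Ifna9 lie, 56.6% were lower, with a median of -0.22. Of 15 genes of receptor signalling and its brakes 7 were higher, 3 lower and 5 not called (median 0.15), that is 46.7% higher. They were mostly bright, with a median level of 9.90, and of all genes at 7 or more 54.2% were higher and 23.8% lower, with a median of 0.18. Socs3, an inhibitor of JAK kinases, was higher by 0.91 (SE 0.05, adjusted p = 2.53e-06), the kinase gene Jak1 by 0.72 (SE 0.05) and Tyk2 by 0.45 (SE 0.05; 1 other probe set was called opposite), while Pias1, an inhibitor of activated STAT signalling, was lower by -0.44 (SE 0.04).

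Of 18 genes of nucleic acid sensing and interferon induction 7 were higher, 6 lower and 5 not called (median 0.10), that is 72.2% called, where 70.8% of all genes were called. The kinase gene Tbk1, which phosphorylates IRF3, was higher by 0.71 (SE 0.05, adjusted p = 6.96e-06), the adaptor genes Mavs and Myd88 by 0.55 (SE 0.06) and 0.53 (SE 0.05), and Nod1 by 0.49 (SE 0.05). Of 67 other interferon-induced genes 25 were higher, 21 lower and 21 not called, that is 68.7% called, with a median of -0.01 and 5 differences of at least 2-fold. Lgals9, which encodes galectin-9, was higher by 1.27 (SE 0.11), the helicase gene Mov10 by 1.24 (SE 0.08) and the RNA-degrading enzyme gene Pnpt1 by 1.20 (SE 0.05), the last 2 each with 1 probe set called opposite. Plscr2, of the phospholipid scramblase family, was lower by -1.17 (SE 0.10), as was Epsti1 by -1.11 (SE 0.06), which was named after its value was seen. Under the poly-A scaling 66 of the 67 were called higher and none lower. Of Irf4 and 3 genes of IRF2-binding proteins, 2 were higher and 2 lower, led by Irf2bpl at 0.60 (SE 0.07) and followed by Irf4 at -0.35, Irf2bp1 at 0.29 and Irf2bp2 at -0.27.

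**Figure D5:**
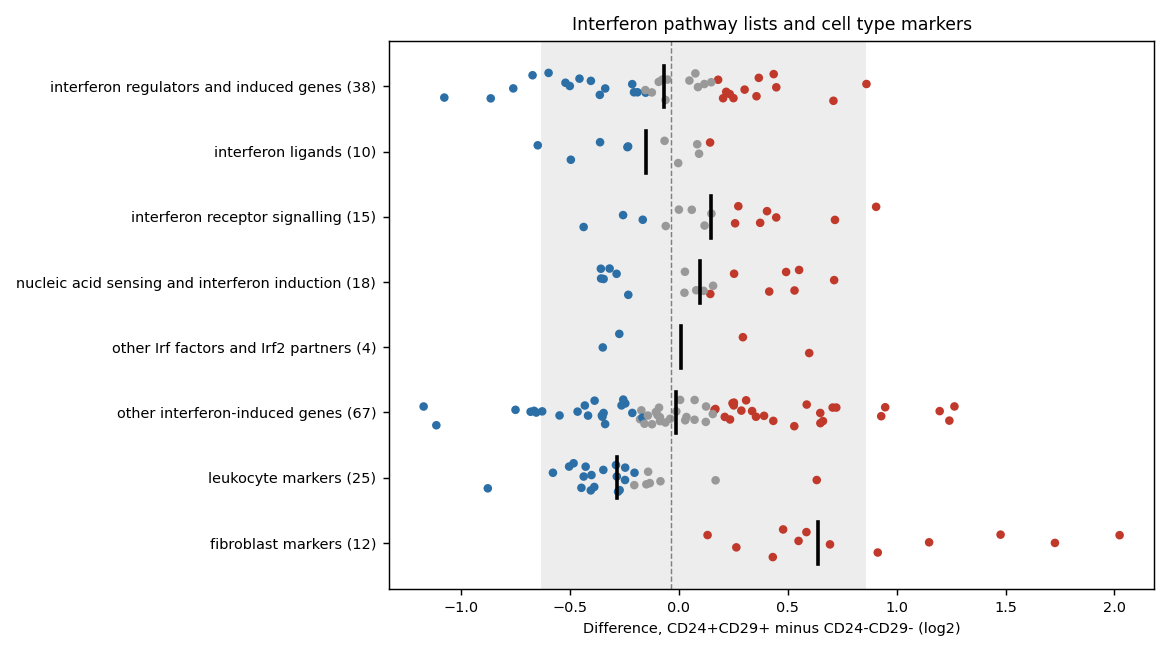
Differences between the groups (log2, horizontal axis) for the interferon genes described here, for the other pathway lists and for leukocyte and fibroblast markers; each point is a gene (red higher, blue lower, grey not past the threshold), and the black bar is the list's median. The grey band spans the 5th to 95th percentile of all genes, -0.63 to 0.85, and the dashed line their median of -0.04; medians of the interferon lists lie between -0.15 and 0.15, those of leukocyte and fibroblast markers at -0.29 and 0.64, and under the poly-A scaling all points shift by 1.26.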

How the data were processed

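RNA from 6 samples, 3 per group, was read on Affymetrix Mouse430_2 arrays. The deposited values are log2 expression values per probe set, made by the authors with RMA and Partek, per the submitters' processing notes; no source used here gives versions or settings. The deposited arrays share a mean of 6.93, so a change in total RNA per cell would not show. Their spread was not equal. The SD over probe sets was 2.10 to 2.14 in CD24+CD29+ arrays and 2.01 to 2.03 in CD24-CD29- arrays. Lower quartiles were 5.20 to 5.27 and 5.37 to 5.41. The part of this unequal spread in the calls was not tested. The values were used as deposited. Of 45101 probe sets 64 controls were left out, 34945 had a single gene symbol in the platform annotation, 932 had several and 9160 none. Each gene was read from its brightest probe set not ending in _x_at, where it had one, and fitted with limma 3.58.1 in R 4.3.3 (lmFit, eBayes, no covariates, Benjamini-Hochberg over 18193 genes, adjusted p under 0.05); the fit was tested on simulated data. A second fit covered all 45037 probe sets. Precision is limited by having 3 arrays a group; the median gene had an SE of 0.0584. Promoter sequences and gene order are from RefSeq GRCm38.p6. The labels give no batch.

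The genes and the other lists were chosen with earlier results of these data known. Array values are given for the 15 largest called differences and for every Irf gene, Stat2 and the receptor chains; of each other pathway list the 4 largest called differences are named. The alternatives were other normalizations, scaling to poly-A controls, filters on dim genes, other ways to combine probe sets, other limma settings, a replicate block and leaving out each array; leaving out probe sets ending in _x_at and _s_at was added after seeing the data. No detection calls or probe sequences were used here.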

Additional observations from a re-analysis of the deposited data

How the results depend on the processing

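Scaling to the poly-A controls changed most. It gave 17952 genes higher and 124 lower over all genes, and 38 and 0 of the interferon genes, 10 and 0 of the ligands, 15 and 0 of receptor signalling, 4 and 0 of the other Irf list, 18 and 0 of nucleic acid sensing, and 66 and 0 of the other induced genes. Under it the differences turned positive for Irf1 (0.39), Irf5 (1.04), Irf8 (0.49), Ifnar2 (0.18), Ifngr2 (0.75), Ifih1 (0.92), Zbp1 (1.18), Trim25 (1.10), Ifit2 (0.85), Ifit3 (1.13), Mx1 (0.66), Mx2 (1.05), Gbp3 (0.58), Oasl1 (0.80), Oasl2 (1.19), Ifitm2 (1.10), Bst2 (1.16), Rsad2 (0.89), Ifi35 (0.73), Xaf1 (1.07) and Parp14 (1.20). The cause of the control difference was not tested. Quantile normalization and cyclic loess turned the sign of Irf9 (-0.11 in both), Ifnar1 (-0.024 and -0.031), Zbp1 (0.0096 and 0.025), Ifit3 (0.018 and 0.016) and Oas1a (-0.047 and -0.065); both left 3 ligands lower, and 1 gene higher and 1 lower in the other Irf list. Median centring turned Parp14 to 0.0016 and called 2 ligands higher. The brightest probe set of any suffix gave Gbp2 at -0.14, the mean of probe sets Trim25 at 0.26, and leaving out probe sets ending in _x_at and _s_at, chosen after seeing the data, Trim25 at 0.60. The fit over all probe sets called 24 of the 62 probe sets lower. Trend and robust priors left 0 ligands higher. Leaving out the dimmest 20% or 40% of genes removed the called ligands, whose mean levels were 4.61 to 5.28. No ligand was then called (0 higher, 0 lower), which the filter itself brought about. Irf4, at a mean level of 5.10, was removed too, which left 1 gene of the other Irf list lower. Without the dimmest 40%, 2966 genes were lower over all.

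Leaving out 1 array gave 5793 to 6062 genes higher and 5944 to 6345 lower over all, and 11 to 12 and 13 to 16 of the interferon genes. For the ligands these ranges were 0 to 1 and 5 to 5, for receptor signalling 7 to 9 and 2 to 3, for the other Irf list 1 to 2 and 1 to 2, for sensing 6 to 8 and 6 to 6, and for other induced genes 23 to 26 and 18 to 22. Eif2ak2 ranged from -0.027 to 0.16 and Ifitm1 from -0.019 to 0.12, neither called in the fit over 6 arrays.

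Whether replicate numbers pair the samples could not be settled with 3 arrays a group. Deviations of same-numbered arrays correlated at 0.222, -0.0539 and 0.0443, against -0.242 to 0.208 for different numbers. With the replicate block 12867 genes were called over all and 12 higher and 16 lower of the interferon genes; Ifnar1 lost its call (adjusted p = 0.081), and Ifit1 (adjusted p = 0.0371) and Ifit3 (adjusted p = 0.0478) gained one.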
